A study of Saccharomyces cerevisiae with 24 samples.

Results

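The regions described here are the FAIRE peaks of the yeast chromosome ends: peaks on the 16 nuclear chromosomes of Saccharomyces cerevisiae whose summit lay within 20 kb of either end. They numbered 3550 of the 63873 peaks in 12 lists, between 238 and 381 per list (295.8 ± 48.7, SD, n = 12). FAIRE isolates DNA that protein holds loosely: after formaldehyde fixation and shearing, such DNA stays in the aqueous phase during phenol extraction, and it is compared with input DNA that was not fixed. The yeast was the laboratory strain BY4742, grown as giant colonies on agar medium with glycerol and ethanol as the main carbon sources, and cells were lifted off with a spatula at 3 days. The amount of cells taken was 4 mg or, in the larger samples, 20, 100 or 500 mg, with 3 biological replicates each, and each of the 12 FAIRE libraries was set against an input library of its own, which makes 24 samples. All groups share strain, medium and age, and the labels set them apart by the amount of cells. Each list of peaks stands for 1 pair of libraries. Read totals were not analysed here, so the depth of a list is unknown.

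Chromosome ends of budding yeast hold few essential genes. They are built from telomere repeats, an X element, and at many ends 1 or more copies of the Y' element, a repeat that encodes the helicase YRF1. Next to these lie families of near-identical genes, such as the seripauperins (PAU, small cell wall mannoproteins), the COS genes (membrane proteins that act in endosomal sorting) and genes for the uptake and breakdown of sugars. Genes near the ends are known to be silenced in part by the Sir proteins, among them a histone deacetylase. In the reference genome 17 of the 32 ends carry a Y' element and 15 do not, which is background knowledge and not read from the gene table used here.

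The 32 windows of 20 kb together span 640 kb, or 5.30% of the nuclear genome, and the share of nuclear peaks that fell in them was between 4.27% and 6.84% (5.63% ± 0.667, SD, n = 12). Reading frames fill 48.96% of these windows and 74.2% of the interior, which is all nuclear sequence 20 kb or more from an end. The 32 ends did not carry equal numbers of peaks. The right end of chromosome I had 12.7 ± 1.9 peaks, followed by the right ends of II (12.3 ± 2.9) and XIII (12.2 ± 2.2), all SD with n = 12 lists. The fewest were found on the left ends of XI (4.2 ± 1.7), VII (4.8 ± 0.83) and I (5.1 ± 1.8). Chromosome I thus had the end with the most and an end among the 3 with the fewest.

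The 12 lists fell apart in the outermost sequence, and this bears on most results that follow. A peak wider than 2 kb was called near the ends 148 times in all, and 147 of these lay at Y' ends. All 17 Y' ends carried such a wide peak in at least 1 list, and 1 other end did, the right end of I, with a peak of 2229 bp in 20 mg replicate 3. The number of wide peaks near ends was 1, 20 and 19 in the 4 mg lists, 0, 0 and 21 in the 20 mg lists, 0, 24 and 0 in the 100 mg lists, and 21, 20 and 22 in the 500 mg lists, each for replicates 1, 2 and 3. In 7 lists the count was 19 or more. The other 5 lists, 4 mg replicate 1, 20 mg replicates 1 and 2, and 100 mg replicates 1 and 3, held at most 1. In the interior the former lists held 51 to 98 wide peaks and the latter 2 to 38. The split was made from peaks near ends, so values at Y' ends follow from it in part and give it no separate support.

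In the outer 5 kb of the 17 Y' ends, peaks covered nearly all bases in the 7 lists with wide peaks. At 4 mg the covered share was 78.2%, 98.6% and 99.0% in replicates 1, 2 and 3. At 20 mg it was 42.3%, 12.9% and 97.0%. The 100 mg lists gave 22.9%, 97.2% and 50.6%, and the 500 mg lists 99.3%, 96.4% and 94.3%. At 500 mg all 3 replicates were above 94%, while each of the other biomasses had lists on both sides of the split. The number of peaks ran the other way, with 17 to 30 peaks in this stretch in the lists with wide peaks and 27 to 88 in the others, since 1 wide peak can take the place of several narrow ones. The widest, on the right end of XII in 500 mg replicate 1, measured 14009 bp.

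**Figure D1:**
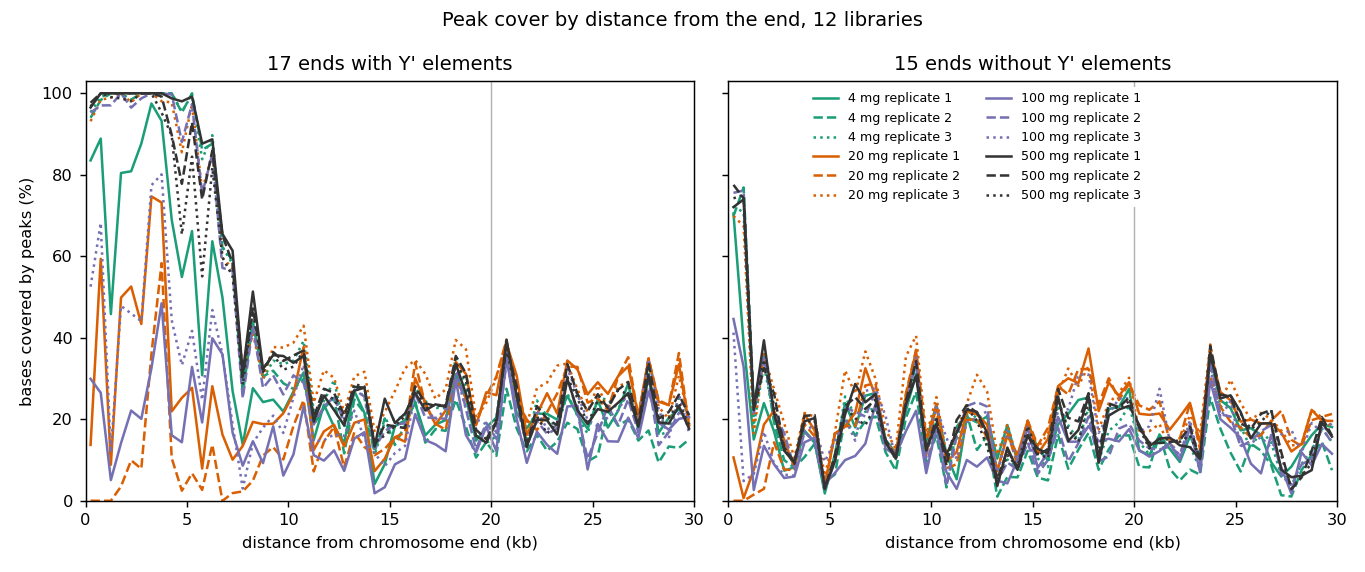
Share of bases covered by peaks (%) in steps of 0.5 kb from the chromosome end (x axis, kb), for the 17 ends with Y' elements (left) and the 15 without (right). Each line is 1 of 12 lists, coloured by biomass, and the grey line marks 20 kb. Near Y' ends 7 lists have 94.3% to 99.3% of the outer 5 kb covered and 5 lists lie lower, while at the other ends the same 7 lists have 68.7% to 75.9% of the outermost 1 kb covered.

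The 15 ends without Y' elements had no such block. Their outer 5 kb was covered to between 7.23% and 30.03% (22.6% ± 8.29, SD, n = 12). In the 7 lists that had wide peaks at Y' ends, 68.7% to 75.9% of the outermost 1 kb was covered. In the other 5 lists the outermost 1 kb was covered to 54.6% (4 mg replicate 1), 5.65% and 0% (20 mg replicates 1 and 2), 38.7% and 23.1% (100 mg replicates 1 and 3). Those 5 lists thus lay below the 7 at both kinds of end, and 20 mg replicate 2 had no covered base in the first 1 kb of either kind.

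The fold enrichment of a peak is the peak caller's ratio, at the summit, of FAIRE signal to the background level drawn from input. It was compared with the interior of the same list alone. In the outer 5 kb of Y' ends the median fold was 0.93, 1.15 and 1.22 times that of interior peaks in the 4 mg lists. The ratio was 0.69, 0.67 and 1.22 at 20 mg, 0.71, 0.99 and 0.80 at 100 mg, and 1.04, 1.09 and 1.01 at 500 mg. The 7 lists with wide peaks lay between 0.99 and 1.22 and the other 5 between 0.67 and 0.93, without overlap. This ratio and the split were taken from the same ends, so the lack of overlap is a description and no separate support.

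Both levels behind that ratio were recovered from the deposited fold and p-value. What is called input level here is the background level that the peak caller used, not a count of input reads at the summit. How the caller drew it from the input library is not stated. The recovered input level at peaks in the outer 5 kb of Y' ends was above that of interior peaks in 12 of 12 lists, 1.61 ± 0.299 times (SD). It was 1.29 to 1.65 times the interior in the 7 lists with wide peaks. The 5 other lists had 1.54, 1.93, 2.16, 1.98 and 1.84, in the order given above. The recovered FAIRE level was also above the interior in 12 of 12 lists, at 1.21 to 1.65 times (1.45 ± 0.150, SD). The input ranges of the 7 and the 5 lists overlapped, and the highest 4 values of the 12 belonged to lists with no wide peak near ends. Its part in the number of wide peaks was not tested. The median −log10 q of interior peaks, a measure of a list's overall strength, was 10.9 to 35.4 in the 7 lists and 6.35 to 11.9 in the 5, and its part was not tested either.

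**Figure D2:**
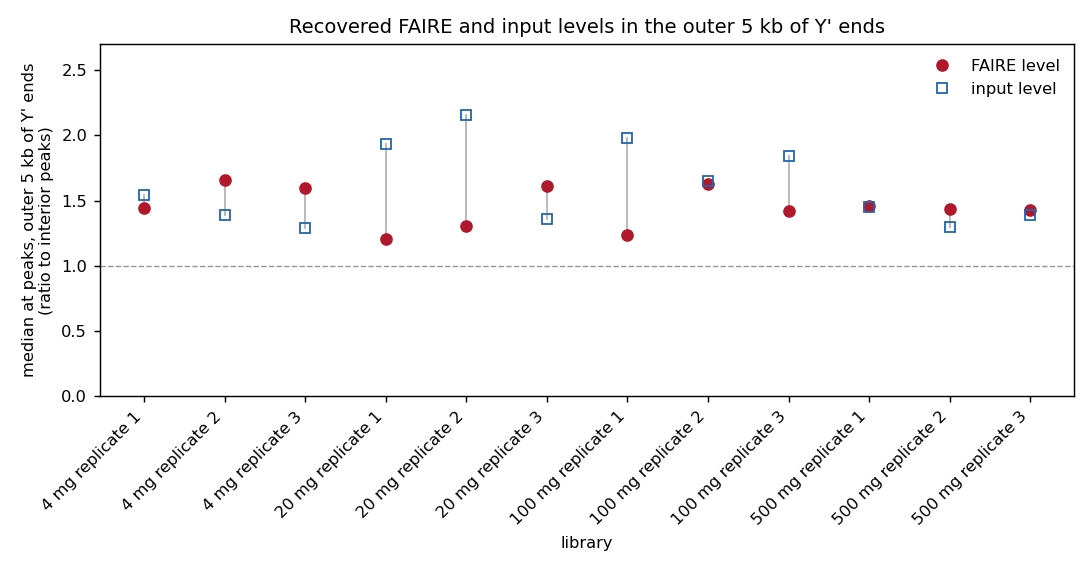
Recovered FAIRE level (filled circles) and input level (open squares) at peaks in the outer 5 kb of the 17 Y' ends, each as the median divided by the median over interior peaks of the same list (y axis, ratio; dashed line at 1), for 12 lists (x axis). The input level is the background level that the peak caller used. Its ratio exceeds that of the FAIRE level most in 20 mg replicate 2 (2.16 against 1.31) and 100 mg replicate 1 (1.98 against 1.23).

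**Figure D3:**
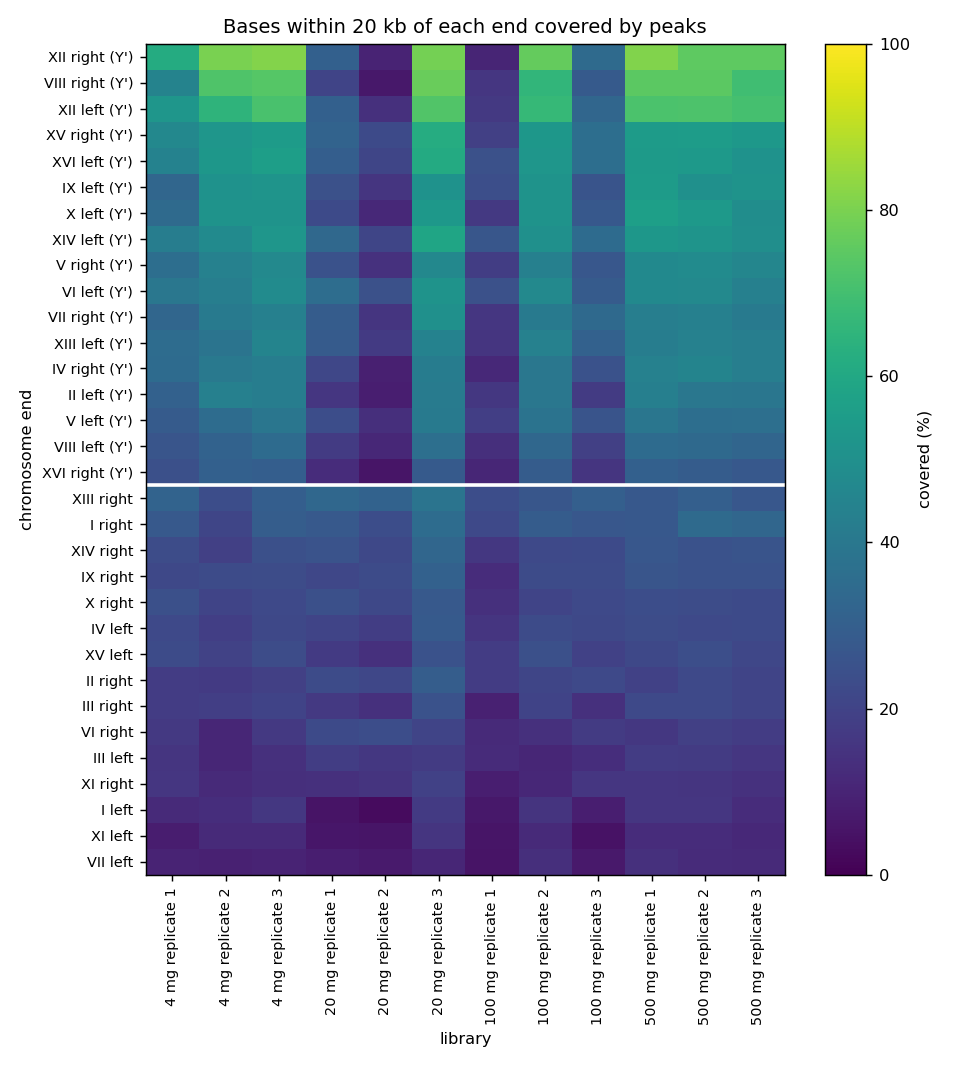
Share of bases within 20 kb covered by peaks (colour, 0 to 100%) at each of the 32 chromosome ends (y axis, Y' ends above the white line, each block ordered by median cover) in each of 12 lists (x axis). The right end of XII had the highest median cover, 75.2%, followed by the right end of VIII with 67.6% and the left end of XII with 65.9%; the left end of VII had 9.87%.

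Ends and interior were compared within each list and the 12 differences tested by an exact permutation of their signs, two-sided, with Benjamini-Hochberg adjustment over 8 measures. These p-values speak of how steady a difference was over libraries of the same genome, not over regions. The share of peaks found in all lists is an exception, as given below. Peaks were not denser near the ends beyond the spread between lists, with 46.2 peaks per 100 kb against 43.5 in the interior (higher in 9 of 12 lists, exact adjusted p = 0.160). This call turned on 1 list and on weak peaks: without 20 mg replicate 2 the difference was 3.97 (exact adjusted p = 0.00911), and with the 3000 strongest peaks per list it was −1.59. End peaks covered more sequence, 29.9% ± 8.57 against 19.2% (SD, n = 12, higher in 11 of 12, exact adjusted p = 0.00547). The 17 Y' ends alone differed from the interior by 20.3 percentage points (exact adjusted p = 0.00586) and the 15 other ends by −0.106 (exact adjusted p = 0.832). In the 7 lists with wide peaks the mean difference over all ends was 16.7 percentage points. Values for those 7 lists are given here and in what follows as descriptions without a test, since the lists were picked by peaks measured at the ends.

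Median peak width was 349 ± 44.3 bp near the ends and 303 bp in the interior (higher in 10 of 12 lists, exact adjusted p = 0.00547). Median fold enrichment was 2.30 ± 0.522 near the ends and 2.43 in the interior, lower in 11 of 12 lists by a mean of 0.131 (exact permutation, adjusted p = 0.00391). The exception was 20 mg replicate 3, with 2.413 against 2.404. At the 15 ends without Y' elements the fold was below the interior in 12 of 12 lists, with ratios of 0.893 to 0.990. At the 17 Y' ends alone the mean difference was −0.119 (exact adjusted p = 0.112). In the 7 lists with wide peaks the mean difference over all ends was −0.0586.

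End peaks recurred in all lists less often than interior peaks. A peak was counted as found in all lists when it shared at least 50 bp with a peak of each of the 11 others. This held for 43.7% ± 6.48 of end peaks and 54.0% of interior peaks (lower in 11 of 12 lists, exact adjusted p = 0.00391). Each value asks for a peak in all the other lists, so the 12 differences are not independent. The p-value of this measure therefore does not show how steady the difference was over libraries. The mean difference was −10.3 percentage points and fell to −4.31 without 20 mg replicate 2. The difference was not spread evenly over the windows. At ends without Y' elements, 23.7% ± 7.20 of peaks in the outer 5 kb were found in all lists, below the interior in 11 of 12 lists. Between 5 and 10 kb of the same ends the share was 64.7% ± 10.4, above the interior in 12 of 12. When the 5 lists with at most 1 wide peak were left out, and sharing was asked of the remaining 7, the difference turned to 4.75 percentage points in favour of the ends.

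**Figure D4:**
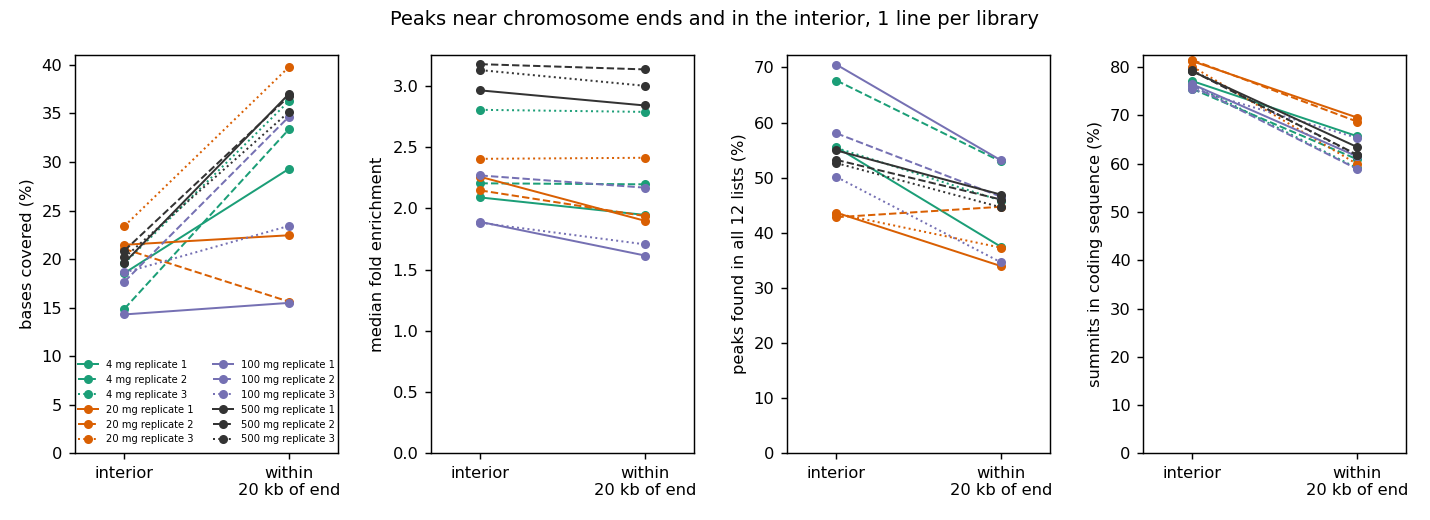
Interior (left point) and end (right point) values of the same list joined by a line, for bases covered (%), median fold enrichment, peaks found in all 12 lists (%) and summits in coding sequence (%), from left to right. Summits in coding sequence fall in all 12 lists, from a mean of 78.1% to 63.1%, while cover rises in 11 lists and drops in 20 mg replicate 2. Reading frames fill 74.2% of the interior and 48.96% of the end windows.

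Summits lay less often in reading frames near the ends, with 63.1% ± 3.56 against 78.1% in the interior (lower in 12 of 12 lists, exact adjusted p = 0.00391). Reading frames fill less of the end windows to begin with, 48.96% of bases against 74.2% in the interior. The share of summits in frames exceeded the share of bases in frames in both places, and by more near the ends. The test was of the raw share of summits, and the share set against frame content was not tested. Noncoding sequence in the 500 bp before a start codon held 14.5% ± 0.982 of summits near ends and 13.6% in the interior (higher in 8 of 12, exact adjusted p = 0.0943). From 5 to 20 kb alone this difference was 1.90 percentage points (exact adjusted p = 0.00391), and among the 3000 strongest peaks it was −1.44. Such sequence makes up 14.3% of the end windows and 15.9% of the interior.

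By distance, the stretch from 15 to 20 kb was the one whose peak density differed from the interior, with 49.5 peaks per 100 kb against 43.5 (higher in 12 of 12 lists, exact permutation of signs, adjusted p = 0.00195 over 4 distances). In the same exact test the outer 5 kb had 47.1 (higher in 6 of 12, adjusted p = 0.462), the stretch from 5 to 10 kb had 46.6 (10 of 12, 0.172) and that from 10 to 15 kb had 41.7 (3 of 12, 0.172). Among the 3000 strongest peaks the stretch from 10 to 15 kb differed from the interior by −5.67 peaks per 100 kb (exact adjusted p = 0.00195). With the 7 lists alone the difference at 15 to 20 kb was 4.86 peaks per 100 kb. Nothing set the 20 kb limit apart: 79.2 ± 12.6 peaks per list lay between 15 and 20 kb and 78.8 ± 8.45 between 20 and 25 kb. Just inside it lay a region on the right end of XVI in YPR195C (chromosome XVI, 927897 to 928306, median fold 2.63) and one in PCA1 on the right end of II. Just outside lay regions on the left end of VII (20294 to 20666, 2.90) and on the right end of VII in MAL13, a maltose regulator gene (1069980 to 1070574, 2.73).

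None of 4 measures of the ends differed between the amounts of cells beyond the spread between replicates. The share of nuclear peaks that lay near ends was 6.84%, 5.29% and 5.37% in the 4 mg lists and 5.96%, 4.27% and 5.31% in the 20 mg lists. At 100 mg it was 5.75%, 5.54% and 6.64%, and at 500 mg 5.28%, 5.56% and 5.77%. The groups overlapped, and 22.8% of the variance lay between biomasses (exact permutation over 369600 assignments, p = 0.558). In the same exact permutation test this was 35.3% for the covered share of the end windows (p = 0.274), 33.7% for the ratio of end to interior fold (p = 0.311) and 21.0% for genes marked upstream (p = 0.570), with an adjusted p of 0.570 for each of the 4 tests. Covered sequence was 36.3% ± 1.00 in the 500 mg lists, 33.0% ± 3.50 in those of 4 mg, 26.0% ± 12.5 in those of 20 mg and 24.5% ± 9.63 in those of 100 mg (SD, n = 3), with the largest spread within 20 mg and within 100 mg.

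The 15 ends without Y' elements gave another picture, in a comparison chosen after the values were seen. There the end to interior fold ratio was 0.893 to 0.920 in the 500 mg lists (0.906 ± 0.0135, SD, n = 3). In the 4 mg lists it was 0.944 ± 0.0113, in the 20 mg lists 0.961 ± 0.0258 and in the 100 mg lists 0.955 ± 0.00519, and no list of a lower biomass fell to the 500 mg range. Of the variance 73.4% lay between biomasses (exact permutation, adjusted p = 0.0418 over the 4 biomass tests at these ends alone). Each lower biomass against 500 mg gave p = 0.1, the smallest that 3 lists against 3 allow in an exact permutation test. The share of nuclear peaks near these ends was 2.84% in the mean of the 4 mg lists, 2.41% and 2.57% for 20 mg and 100 mg, and 2.82% for 500 mg, with 62.9% of the variance between biomasses (exact permutation, adjusted p = 0.0486). At these ends the recovered FAIRE level relative to the interior was 0.935 ± 0.00708 at 500 mg. It was 0.970 to 0.988 in the mean of the lower biomasses. The recovered input ratio was 1.02 at 500 mg and 1.00 to 1.05 at the others. The 500 mg lists also had the highest median fold of interior peaks, 2.96 to 3.18 against 1.88 to 2.80 in the others. Their median −log10 q of interior peaks was 28.9 to 35.4, against 6.35 to 22.4. Biomass and the strength of a list thus cannot be told apart here.

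Merged over the lists, the end peaks formed 329 regions, of which 109 (33.1%) were present in all 12 lists and 30 in 1 list. The next 20 kb inward gave 384 regions, of which 126 (32.8%) were in all lists. Of the 109, 20 were longer than 2 kb after merging, and 18 of these lay at the 17 Y' ends. The strongest region by median fold over the lists lay on the right end of VI (255365 to 256342). It overlapped no reading frame and lay upstream of HXK1, a hexokinase gene, with summits inside the 500 bp before its start codon in 5 lists. Its fold was 3.16, 2.63 and 4.09 at 4 mg, 2.60, 3.18 and 3.29 at 20 mg, 2.32, 3.02 and 2.64 at 100 mg, and 4.22, 4.57 and 4.39 at 500 mg, with a median of 3.17. Fold depends on the enrichment of each library, so these values are not compared between biomasses.

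The second strongest region lay in the divergent intergenic window of CHA1 and VAC17 on the left end of III (16937 to 17373, median fold 3.12). Most of the others among the 10 strongest had their summit inside a reading frame. They lay in SRY1, the 3-hydroxyaspartate dehydratase gene (XI left, 17412 to 18174, 3.10), in PCA1, which encodes a metal-transporting ATPase (II right, 792879 to 793455, 3.04), and in VTH2, a homologue of a vacuolar sorting receptor gene (X left, 15725 to 16236, 2.99). The vitamin B6 genes SNZ2 (XIV left, 13191 to 14211) and SNZ3 (VI left, 11305 to 12333) gave a median fold of 2.99 each, and the sulfatase gene BDS1 gave 2.95 (XV left, 6612 to 7954). The remaining 2 were long merged regions, on the right end of I over 4 small open reading frames (218564 to 223007, 2.96) and on the left end of IX in the Y' reading frame YIL177C (24 to 7850, 2.94).

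The 5 regions in all lists that lay nearest to an end were found at PAU8 on the left end of I (1288 to 2271, fold 2.23), at PAU6 on the right end of XIV (781242 to 782882, 2.41), and at 3 Y' ends. These were the left end of VI (1 to 5650, 2.66), the left end of XIII (6 to 6455, 2.65) and the right end of XVI (from 942368 over 5699 bp, 2.55). The median summit at PAU8 was 1965 bp from the end, the closest of all regions shared by the 12 lists.

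Of 6000 protein-coding genes with a full upstream window, 234 had their start codon near an end, 124 at Y' ends and 110 at other ends. A gene was called marked in a list when a summit lay within 500 bp upstream of its start codon. In all 12 lists 11 of the 234 were marked, or 4.70%, against 9.73% over all genes tested. Never marked were 114, or 48.7%, against 58.4% of interior genes. Per list, 25.5% ± 3.52 of end genes and 23.7% of interior genes were marked (higher in 9 of 12 lists, exact permutation of signs, adjusted p = 0.0247). That difference depended on weak peaks. Among the 3000 strongest peaks of each list it was −2.23 percentage points (exact permutation, adjusted p = 0.0234), and at a −log10 q of 5 or more it was 0.124 (exact permutation, adjusted p = 0.871). With the 7 lists alone it was 1.37, and at the 17 Y' ends alone it was 0.997 (exact permutation, adjusted p = 0.362).

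The 11 genes marked throughout were a mixed set. CHA1, the serine and threonine deaminase gene of amino acid breakdown, and VAC17, which acts in vacuole inheritance, shared 1 summit. Its fold was 2.62, 2.71 and 3.75 at 4 mg, 3.00, 3.30 and 3.24 at 20 mg, 2.29, 2.87 and 2.82 at 100 mg, and 4.66, 4.19 and 3.895 at 500 mg. GTT1, a glutathione transferase gene, had a median fold of 2.89 and DLD3, a D-lactate dehydrogenase gene, 2.50. The sugar transporter gene MPH2 had 2.32 and the alcohol dehydrogenase gene ADH6 2.262. The other 5 were PXP3 (2.37) and the open reading frames YGL262W (2.58), YGL260W (2.41), YER188W (2.36) and YHR214C-D (2.34). In 12 of 12 lists the marking summit of PXP3 lay inside the frame of PAU13, that of YGL260W inside PAU11 and that of YHR214C-D inside YHR214C-E, so these 3 windows overlap the frame of a neighbour, while the summits of the other 8 genes lay in no other frame. The median distance from summit to start codon was 151.5 bp for DLD3 and 375 bp for ADH6, the extremes of the 11, and with a window of 250 bp 3 end genes were marked in all lists.

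Peaks over the reading frames of end genes were common. In all 12 lists a peak overlapped the frame of 90 of 234 genes by 50 bp or more, which is 38.5%, near the background of 34.5% over all genes. The extent of cover lay farther from it. In 99 genes (42.3%) the median cover of the frame over the lists was 50% or more, where 20.6% of all genes reached this. These were 65 of 124 genes at Y' ends and 34 of 110 at the others, against 19.7% of interior genes. Frame lengths were not matched in these comparisons of cover, and their part was not tested. The mean of the median cover at Y' ends was 95.4% for genes that start in the outer 5 kb, 62.2% from 5 to 10 kb, 42.0% from 10 to 15 kb and 33.2% from 15 to 20 kb. At the other ends it was 44.2%, 29.9%, 27.5% and 28.9%.

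Gene families differed in where their peaks lay. Members of a family are near-identical copies, so reads may be shared or split between them, and how such reads were placed is unknown here. Values of single copies are uncertain for that reason. Of 17 lists of genes with roles at the ends or in growth on poor carbon sources, 15 had members near an end, holding 94 of the 234 genes, and 140 genes were in none. The flocculin list and the aquaporin list had no member within 20 kb of an end. Where members are given as unmarked below, the share never marked was 48.7% over the 234 end genes and 58.0% over all genes.

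**Figure D5:**
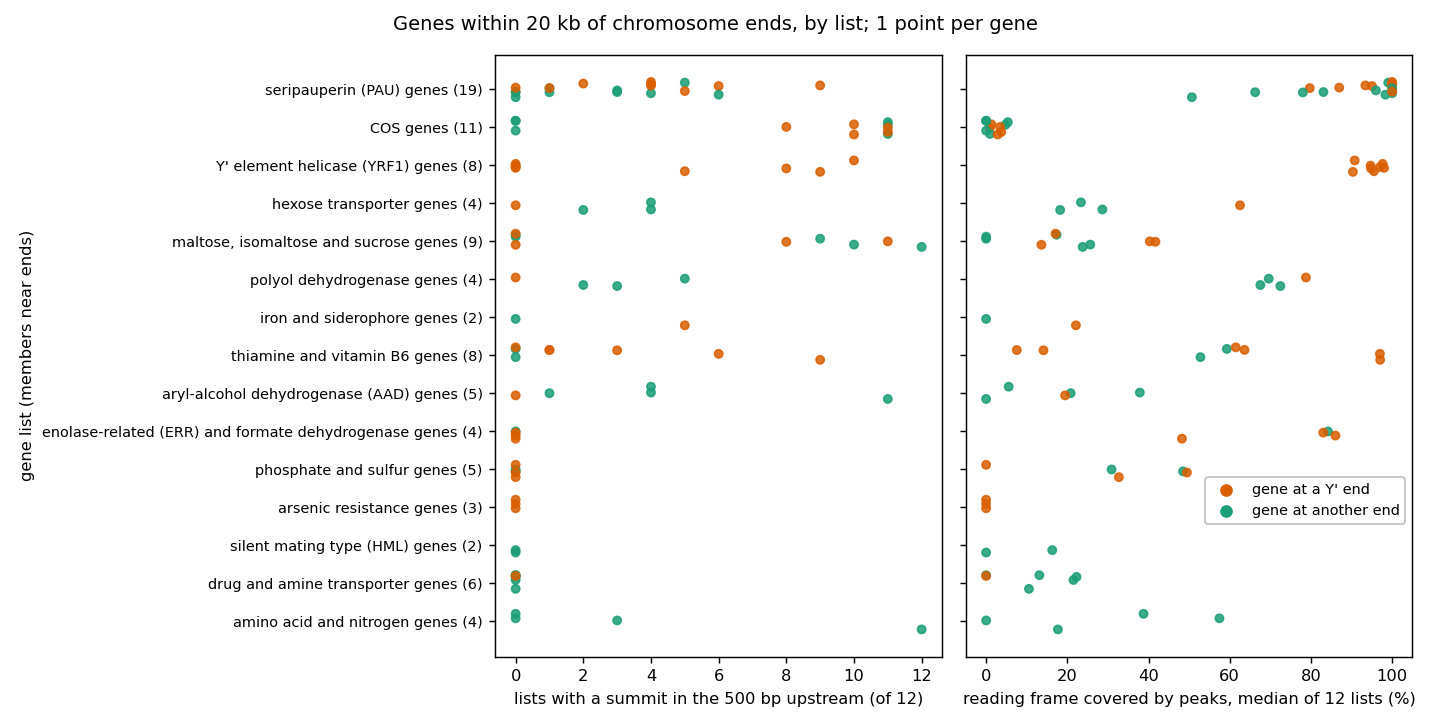
Each point is a gene near an end (orange, Y' end; green, other end), in rows by list (y axis, number of members near ends in brackets), with the number of lists in which a summit lay in its 500 bp upstream window (left, 0 to 12) and the median share of its reading frame covered by peaks (right, %). PAU and YRF1 frames lie mostly above 50% cover, while COS frames lie at 5.35% or less and 8 of 11 COS genes are marked upstream in 8 to 11 lists. Over all 234 end genes the median is 1 list.

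All 8 YRF1 genes lie in Y' elements, and their frames followed the split between lists. The split was made from wide peaks that lay almost all at Y' ends, so this is no separate result. The median cover of the 8 frames was 78.4%, 100% and 100% at 4 mg, 45.4%, 11.1% and 100% at 20 mg, 11.7%, 98.0% and 53.1% at 100 mg, and 100%, 97.1% and 93.7% at 500 mg. Each of the 8 had at least 50 bp covered in 12 of 12 lists. Upstream windows of YRF1-6, YRF1-7 and YRF1-3 were marked in 10, 9 and 8 lists, and those of YRF1-1, YRF1-2, YRF1-5 and YRF1-8 in none.

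Of the PAU genes 19 lie near ends, 10 of them at Y' ends, and their short frames of 129 to 495 bp were covered more or less whole. In 13 of the 19 the median cover was 90% or more, which 7.52% of all genes reached, and in 8 it was 100%, which 3.65% of all genes reached. Both shares over all genes include frames of any length and were not matched to such short frames. The median width of peaks near the ends, 349 bp, lies within the range of PAU frame lengths. How much of the difference came from frame length was not tested. The median over the 19 genes was 92.3%, 100% and 100% in the 4 mg lists, 84.0%, 46.3% and 100% in the 20 mg lists, 80.7%, 98.3% and 68.3% in the 100 mg lists, and 100% in each of the 500 mg lists. The lowest value again belonged to 20 mg replicate 2. PAU24, on an end without Y' elements, kept 89.3% or more in all 12 lists, and PAU13, at a Y' end, 86.5% or more. Upstream windows of PAU genes were marked in 9 lists for PAU9, in 6 for PAU18 and PAU6, and in none for 4 genes.

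The 11 COS genes showed the reverse. No COS frame was covered by more than 18.7% in any list, and the median of the 11 median covers was 1.31%. Upstream, COS2, COS3, COS5, COS7 and COS8 were marked in 11 lists, COS1 and COS6 in 10 and COS4 in 8. The median was 10 lists over the 11 COS genes, 1 over the 234 end genes and 0 over all 6000 genes. Their median summits lay 92 to 115 bp before the start codon, although these genes sit on 8 different ends, and their median fold was 2.01 to 2.60. The number of COS genes marked per list was 7, 8 and 8 at 4 mg, 7, 1 and 8 at 20 mg, 5, 8 and 7 at 100 mg, and 8, 8 and 8 at 500 mg, with 20 mg replicate 2 again lowest. COS9, COS10 and COS12 were marked in no list. All 3 lie on ends without Y' elements, as do COS2, COS5 and COS7.

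Frames of some metabolic genes, picked after their values were seen, were covered in every list, including the 5 lists that stood apart. A peak overlapped the frame in 12 of 12 lists in 38.5% of end genes and 34.5% of all genes. The median cover was 50% or more in 42.3% of end genes and 20.6% of all genes. The vitamin B6 synthesis genes SNZ2 and SNZ3 had a median cover of 97.0% each, with lowest values of 83.3% and 86.8%. SNO2 and SNO3, their partners in the same pathway, had medians of 7.55% and 14.1%, were overlapped by a peak in 6 and 9 lists, and had 0% in their lowest list. The 3 ERR genes, which encode enolase-like proteins, had medians of 83.0% to 86.0%, and FDH1, the formate dehydrogenase gene, 48.2%. The polyol dehydrogenase genes SOR1, SOR2, MAN2 and DSF1 had 67.6% to 78.8%, and none of these 4 fell below 37.8% in any list. The pyrimidine synthesis genes of the thiamine pathway, THI5, THI11, THI12 and THI13, had 52.8% to 63.6%. Upstream marking was uneven in these families, where the median was 1 list over the 234 end genes. SNZ3 was marked in 9 lists, SNZ2 in 6, SOR1 in 5, MAN2 and SNO3 in 3 and SOR2 in 2. THI5 and SNO2 were marked in 1 list and no ERR gene in any. Median summits of SNZ3 and SNZ2 lay 403 and 439 bp before the start codon, and their windows reach into the frames of SNO3 and SNO2. With a window of 250 bp SNO3 kept 3 lists, while SNZ3, SNZ2, SOR1, MAN2 and SOR2 had 0.

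Genes for sugar use were marked at some copies and not at others. The permease gene MPH2 was marked in 12 lists and MPH3 in 10, and the isomaltase genes IMA4 and IMA3 in 11 and 8. With a window of 250 bp the counts were 10 for MPH2, 7 for MPH3 and 0 for IMA4. Among the 3000 strongest peaks they were 6, 6 and 10. MAL31, MAL32, MAL11 and MAL12 were marked in none, as were 48.7% of all end genes, and had median frame covers of 0% to 17.4%. MAL33, a maltose regulator gene, was marked in 3 of 3 lists at 4 mg, at 20 mg and at 100 mg and in 0 of 3 at 500 mg, an item picked after its values were seen. Its window (II right, 800023 to 800522) overlaps that of TYC1, which shares the summit. A list counts as unmarked also where a nearby summit fell outside the window. Of the hexose transporter genes, HXT15 and HXT16 were marked in 4 lists and HXT17 in 2, while HXT9 was unmarked and had a frame cover of 62.5%.

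In the remaining lists AAD10, an aryl-alcohol dehydrogenase gene, was marked in 11 lists, AAD4 and AAD15 in 4 each, AAD3 in 1 and AAD14 in none. In the iron list ARN2, a siderophore transporter gene, was marked in 5 lists, and FRE2, a ferric reductase gene, had no peak upstream or in its frame. None of the 5 end genes in the phosphate and sulfur list, which left out GIT1, was marked, where 48.7% of all end genes were never marked. The acid phosphatase genes PHO11 and PHO12 had median frame covers of 48.5% and 32.7%. The amino acid and nitrogen list also held genes of other roles. GIT1, a glycerophosphoinositol permease gene, was marked in 3 lists. The alcohol dehydrogenase genes ADH7 and ADH4 were marked in none, and the ADH7 frame was covered to 57.5%.

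The arsenic resistance genes ARR1, ARR2 and ARR3 on the right end of XVI were marked in no list and had a median cover of 0%. None of the 6 drug and amine transporter genes was marked in any list, where 48.7% of all end genes were never marked. A peak overlapped the frames of the glutathione exchanger genes GEX1 and GEX2 in 12 of 12 lists, with median covers of 21.5% and 22.3%, and those of VBA3 and VBA5 in 10 lists. SEO1 and SGE1 had no peak over their frames. At the silent mating cassette on the left end of III, HMLALPHA1 and HMLALPHA2 were unmarked in 12 of 12 lists. A peak overlapped HMLALPHA1 in 6 lists, with a median cover of 16.3%, and HMLALPHA2 in none. BY4742 is of mating type alpha and carries the same sequence at the active locus, so the source of reads at HML is uncertain.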

How the data were processed

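FAIRE and input DNA were sequenced as single-end reads, per the labels. The submitters' processing notes name the build sacCer3 (R64) and the tools MACS2 2.1.1.20160309, Bowtie2 2.2.8, bedtools 2.26.0, SAMtools 1.4 and FastQC 0.11.5. Settings, and how reads with several positions were treated, are not stated in the sources used here. Each deposited list came from 1 FAIRE and input pair, so replicates were not pooled. The deposited columns used were peak positions with the summit, the fold enrichment (a ratio made by the authors' peak caller) and the −log10 p-value and −log10 q-value. The deposited score, 10 times the −log10 q rounded down, was not used further. Peaks depend on the depth of both libraries, which is unknown, so levels were compared within lists.

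Chromosome lengths of R64 were entered by hand and compared with the peaks: on 5 chromosomes a peak ended at the last base and on 0 past it. The 17 Y' ends were also entered from background knowledge. Genes came from a RefSeq table of R64 without untranslated regions, with strands from systematic names. Of 6002 protein-coding genes 6000 had a full window of 500 bp upstream. Input and FAIRE levels were recovered by solving fold and p under a Poisson model, so the input level is the background level of the peak caller. The recovered FAIRE level was whole within 0.02 for 100% of peaks in 9 lists and for 3.72% to 4.07% in 4 mg replicates 2 and 3 and 100 mg replicate 1, where it is less certain.

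Ends and interior were compared by sign flips over 12 lists (4096, exact) and biomasses by 369600 assignments (exact), in Python 3.11.15 with numpy 2.4.6, pandas 2.3.3 and scipy 1.17.1, and the scripts were tested on simulated data. Differences were tested at an adjusted p of 0.05. Whether replicate numbers pair lists was checked by correlation, which gave no sign of pairing but cannot exclude a shared batch. Members, gene lists and tests were chosen with earlier results of these data known. Genes were named when marked in all lists or when among the 3 members of a list marked most often; regions when among the 10 strongest or the 5 nearest to an end in all lists; ends when among the 3 with the most or fewest peaks. Other genes named are further members of the lists, picked after their values were seen. The split into Y' and other ends and the omission of 5 lists were added after the data were seen.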

Additional observations from a re-analysis of the deposited data

How the results depend on the processing

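Leaving out each list in turn moved the end minus interior differences to between 1.81 and 3.97 for peaks per 100 kb, 0.653 and 1.05 for the percent of summits in upstream noncoding sequence, and 2.51 and 4.78 for peaks per 100 kb from 5 to 10 kb. The first and the last passed the threshold without 20 mg replicate 2 (exact permutation, adjusted p = 0.00911 and 0.00586), and the second passed without 100 mg replicate 2 or 3. The other end, distance and biomass results kept their side of the threshold in all 12 omissions, but some values moved by over 1.5 times. The percent found in all lists went from −12.0 to −4.31, the latter without 20 mg replicate 2. Peak density differed by 1.09 to 6.32 in the outer 5 kb, lowest without 4 mg replicate 1 and highest without 20 mg replicate 2, and was 1.303 without 100 mg replicate 3. From 10 to 15 kb it differed by −2.22 to −1.12, the latter without 20 mg replicate 2, and by −1.15 without 100 mg replicate 1. Over all ends the 1.81 came without 4 mg replicate 1. The variance between biomasses ranged from 11.7% to 40.1% for the share of peaks (without 20 mg replicates 2 and 1), up to 66.4% for cover and 64.2% for the fold ratio (both without 20 mg replicate 3; cover 52.97% without 100 mg replicate 2), and from 9.57% to 54.5% for genes marked (without 20 mg replicate 1 and 100 mg replicate 3; 31.97% without 100 mg replicate 1).

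With a −log10 q of 5 or more, the difference was −0.588 for peaks per 100 kb, 0.124 for genes marked, −4.53 for the outer 5 kb and −3.28 for 10 to 15 kb, and frames overlapped in all lists numbered 44. With the 3000 strongest peaks it was −1.59 for peaks per 100 kb, −1.44 for upstream noncoding summits, −2.23 for genes marked, −2.28 for the outer 5 kb, −0.822 for 5 to 10 kb and −5.67 for 10 to 15 kb. There 4 end genes were marked and 21 frames overlapped in all lists, and the median cover of the outer 5 kb of the other ends was 17.4%. Within 10 kb of the ends, the fold differed by −0.150 and genes marked by 2.51. Within 30 kb, peak density differed by 4.02. From 5 to 20 kb the differences were 2.43 for peaks per 100 kb, 1.90 for upstream noncoding summits and 0.867 for genes marked. A window of 250 bp gave 0.901 for upstream noncoding summits and 3 genes marked in all lists. The number of lists marked changed in 26 of the named genes and stayed in 26, among them genes marked in none. YRF1-6 went from 10 lists to 1, YRF1-3 from 8 to 2 and PAU18 and PAU6 from 6 to 0. COS2, COS3 and COS5 stayed at 11. At the Y' ends, fold differed by −0.119 and genes marked by 0.997. At the other ends, cover differed by −0.106 and density from 5 to 10 kb by 2.84, with 62.9% and 73.4% of variance between biomasses for the share of peaks and the fold ratio. The 7 lists with wide peaks, picked by values at the ends and so given without a test, had differences of −0.0586 for fold, 4.75 for peaks found in all lists, 1.37 for genes marked, −3.17 for the outer 5 kb and 4.86 for 15 to 20 kb. The cause of these moves was not tested.

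No row shared start and end with another, so counting such rows once moved nothing. Coding share and median width kept direction and call in all alternatives run. A replicate block, with biomasses permuted within replicate numbers, gave 22.8% (p = 0.453), 35.3% (p = 0.318), 33.7% (p = 0.196) and 21.0% (p = 0.604) for the 4 biomass tests, by exact permutation, and changed no call. Same-numbered lists correlated between −0.905 and 0.794 in their deviations from the biomass means, so the numbers do not pair them. The unknown depth limits what a missing peak shows, and peaks of repeated copies are uncertain.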
